A study of Arabidopsis thaliana with 60 samples.

Results

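The clade A type 2C protein phosphatases (PP2Cs) are the brakes of abscisic acid (ABA) signalling in Arabidopsis thaliana. Of the 32833 genes measured, 9 were followed across all 20 groups of libraries. They were chosen by locus identifier: 8 phosphatases, ABI1 (AT4G26080), ABI2 (AT5G57050), HAB1 (AT1G72770), HAB2 (AT1G17550), PP2CA (AT3G11410), HAI1 (AT5G59220), HAI2 (AT1G07430) and HAI3 (AT2G29380), and the ABA synthesis gene NCED3 (AT3G14440). All 9 were in the table, and 8 had a mean of at least 10 normalized counts and were tested. HAI3 did not reach that level.

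In the absence of ABA the clade A phosphatases hold SnRK2 kinases such as OST1 in a dephosphorylated, inactive state. ABA binds receptors of the PYR/PYL family, the receptor then blocks the phosphatase, and the freed kinases phosphorylate transcription factors of the ABF family and the guard-cell anion channel SLAC1. NCED3 encodes a 9-cis-epoxycarotenoid dioxygenase, which catalyses the rate-limiting step of ABA synthesis under stress. The phosphatase genes are themselves known as targets of ABA, which gives the pathway a negative feedback, and the HAI genes were named for being highly ABA-induced.

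All plants were wild type Col, grown at 23 °C with 14 h of light at 50 µmol per square metre per second, and were bolting when stressed. No mutant, transgene or added hormone was part of the design. Leaves were lit at 1700 µmol per square metre per second (high light, HL) or heated from a block 2 cm below them (heat stress, HS). The stresses were given alone, together to 1 leaf (HL+HS), or to separate leaves of a plant (HL&HS), for 2 or 8 min. Treated leaves and the untreated stem were collected, with 0 min controls of each tissue, in 11 leaf and 9 stem groups of 3 libraries each, so that n = 3 for every mean below. For HL&HS, the lit leaf and the heated leaf form separate groups. At 8 min the titles and the treatment tags of the singly stressed leaf groups name opposite stresses. The titles were followed, and the text speaks of leaves titled HL and titled HS. It is not said whether replicate libraries are from different plants, so p-values measure the spread between libraries, which may be technical. Every comparison with control within a tissue uses the same 3 control libraries. Where libraries are said to overlap or not, this describes the values of that gene only. The share of all genes without overlap is not given, and the shares given below are of limma calls.

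The 27 libraries at 2 min held 31725824 to 47559552 reads and the 33 libraries at 0 and 8 min 11071918 to 12998149, so stress duration and depth class cannot be told apart when 2 min groups are compared with the others. The summed level of 4 markers of xylem and fibre secondary walls (CESA4, CESA7, CESA8 and IRX9) was 44048 to 47599 normalized counts in the control stems and 17289 to 34446 in the stressed stems. In leaves the same sum was 405 to 461 in controls and 372 to 2205 under stress, with the top of the range in the HL leaf of HL&HS at 8 min. Every comparison of a stressed stem with the control stem therefore also compares stems with different levels of these wall genes, and their part in the results was not tested. The summed level of 4 markers of leaf mesophyll (RBCS1A, LHCB1.1, LHCB2.1 and CA1) was 437013 to 460334 normalized counts in control leaves. In stressed leaves it was 465483 to 704062, with the top in the heated leaf of HL&HS at 8 min. The part of these genes in the leaf results was not tested either. Summed markers of guard cells, phloem companion cells and stem epidermis also shifted in some stressed groups of both tissues. In whole leaves and stems, fewer cells of a type and less RNA per cell cannot be told apart.

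The sequences upstream of the genes were read first, because the ABA-responsive element (ABRE), with the core ACGTG, is the element through which ABF factors are known to act. The 300 bases before the annotated start of each gene were searched on both strands. The core was found at 6 of the 9 genes, against 25.6% of 27443 promoters of the same length in the TAIR10.1 annotation from RefSeq. PP2CA and HAI2 held 5 matches each, and HAB2 and HAI3 held 2 each. ABI1 and HAB1 held 1 each, and ABI2, HAI1 and NCED3 held none in this window. Over all promoters, 9.94% held 2 or more. In PP2CA, CACGTG reads as the core on both strands and counts as 2 overlapping matches. The rapid stress response element CGCGTT was in none of the 9 windows and in 3.08% of all promoters. The heat shock element pair GAANNTTC was in that of HAI3 alone and in 11.5% of all promoters. The promoters with the most matches, those of ABI1, which rose in all leaf groups at 8 min, and HAB1, which fell in all groups, and that of NCED3, the gene with the largest changes, read as follows from 5′ to 3′ on the strand of the gene, with the ACGTG matches of either strand in capitals.

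PP2CA (chr3:3585851-3586150, minus strand): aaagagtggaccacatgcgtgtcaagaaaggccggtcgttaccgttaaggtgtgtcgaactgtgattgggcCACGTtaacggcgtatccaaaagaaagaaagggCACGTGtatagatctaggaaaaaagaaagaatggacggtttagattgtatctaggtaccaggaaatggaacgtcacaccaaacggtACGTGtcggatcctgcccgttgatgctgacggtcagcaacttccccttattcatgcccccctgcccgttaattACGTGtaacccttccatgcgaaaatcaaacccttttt
HAI2 (chr1:2282829-2283128, minus strand): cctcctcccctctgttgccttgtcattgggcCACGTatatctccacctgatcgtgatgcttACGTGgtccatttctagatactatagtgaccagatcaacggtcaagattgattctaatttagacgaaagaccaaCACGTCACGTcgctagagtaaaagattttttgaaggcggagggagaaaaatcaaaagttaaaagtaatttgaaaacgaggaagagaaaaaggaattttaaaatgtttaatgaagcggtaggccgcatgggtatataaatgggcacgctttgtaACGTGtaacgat
ABI1 (chr4:13222377-13222676, minus strand): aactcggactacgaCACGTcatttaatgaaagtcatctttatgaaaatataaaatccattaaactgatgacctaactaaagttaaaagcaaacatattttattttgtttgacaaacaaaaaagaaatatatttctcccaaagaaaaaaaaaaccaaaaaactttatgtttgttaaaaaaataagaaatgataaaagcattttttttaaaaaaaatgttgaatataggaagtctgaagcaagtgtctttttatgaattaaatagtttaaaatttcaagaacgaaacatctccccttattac
HAB1 (chr1:27389648-27389947, plus strand): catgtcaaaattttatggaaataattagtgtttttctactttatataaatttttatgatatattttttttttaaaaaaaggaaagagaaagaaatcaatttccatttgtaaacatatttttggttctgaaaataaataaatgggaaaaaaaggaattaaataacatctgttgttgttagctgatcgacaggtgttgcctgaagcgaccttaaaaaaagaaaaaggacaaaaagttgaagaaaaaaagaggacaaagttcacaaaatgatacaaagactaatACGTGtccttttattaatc
NCED3 (chr3:4834016-4834315, minus strand): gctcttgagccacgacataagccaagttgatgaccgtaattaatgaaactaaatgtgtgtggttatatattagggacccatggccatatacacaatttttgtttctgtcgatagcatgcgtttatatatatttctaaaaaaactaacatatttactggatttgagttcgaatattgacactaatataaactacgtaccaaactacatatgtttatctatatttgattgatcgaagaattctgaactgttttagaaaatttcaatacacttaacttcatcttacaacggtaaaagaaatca

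In untreated leaves the members differed widely in level. Per kilobase of annotated exon, HAB1 was the most abundant, at 1822 ± 49.9 normalized counts (SD), followed by PP2CA at 1366 ± 49.4, ABI1 at 977 ± 37.4, HAB2 at 784 ± 14.5 and ABI2 at 329 ± 5.59. Libraries of neighbours in this order did not overlap. NCED3 stood at 122 ± 11.3 per kilobase. HAI2 at 42.3 ± 4.94 and HAI1 at 35.9 ± 9.69 per kilobase were the lowest of the tested members, and their libraries overlapped.

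**Figure D1:**
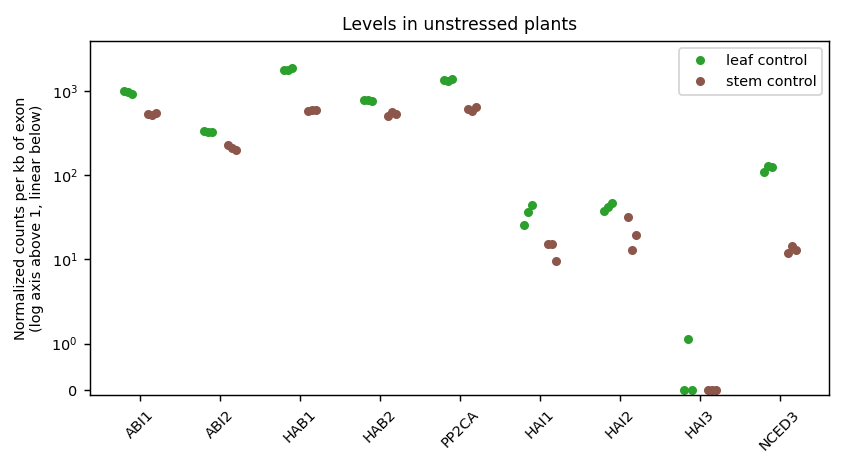
Normalized counts per kilobase of exon (y axis, logarithmic above 1 and linear below) of the 9 genes (x axis) in the 3 leaf controls (green) and 3 stem controls (brown), 1 point per library. HAB1 and PP2CA lead in leaves, the HAI genes lie far below, and NCED3 shows the widest gap between the tissues.

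In untreated stems every one of the 8 tested members was lower than in untreated leaves by limma with Benjamini-Hochberg adjustment. Between these tissues 82.9% of all 18893 genes tested were past the adjusted p threshold of 0.05, and 41.6% were lower in stem, so the count says little about the members. NCED3 had the largest gap. It read 297, 353 and 346 normalized counts in the control leaves and 32.3, 39.7 and 35.5 in the control stems, a log2 difference of -3.18 (SE 0.12, adjusted p = 1.78e-31). HAB1 followed at -1.62 and HAI1 at -1.38 on the log2 scale. HAB2 differed least, at -0.54. Per kilobase in stem, PP2CA at 619 ± 36.3 and HAB1 at 591 ± 9.93 led, and their libraries overlapped.

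HAI3 was close to absent. It had 55 reads in all 60 libraries together, 0 in 29 of them, and at most 5 in any library. Only 1 library was above the 3 reads taken as the floor of detection. AHG1, the remaining clade A phosphatase, known for its role in seeds, had 18 reads over the 60 libraries and 0 in 46. A change of either gene was not detectable at this depth.

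NCED3 had the largest changes of the 9 genes in the treated leaves. In the control leaves it read 297 to 353 normalized counts. At 8 min it read 876, 829 and 970 in leaves titled HL, 1248, 1277 and 1324 in those titled HS, and 1039, 1047 and 1231 under HL+HS. In HL&HS plants it read 1244, 1378 and 1287 in the lit leaf and 1613, 1601 and 1733 in the heated leaf. Every 8 min leaf library was above every control library, and the heated leaves of HL&HS plants were above all others. Against control the log2 changes were 1.42, 1.95, 1.73, 1.97 and 2.31 in that order (SE 0.07 each), and the last, a 4.97-fold rise, had an adjusted p of 3.9e-28 by limma.

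The order of NCED3 at 8 min was in part resolved. The heated leaf of HL&HS exceeded the lit leaf of the same plants by 0.34 on the log2 scale (adjusted p = 0.000336 by limma). Leaves titled HS exceeded those titled HL by 0.53 (1283 against 892 normalized counts, adjusted p = 1.68e-07). The groups titled HS and the lit leaf of HL&HS overlapped, with means of 1283 and 1303 normalized counts.

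**Figure D2:**
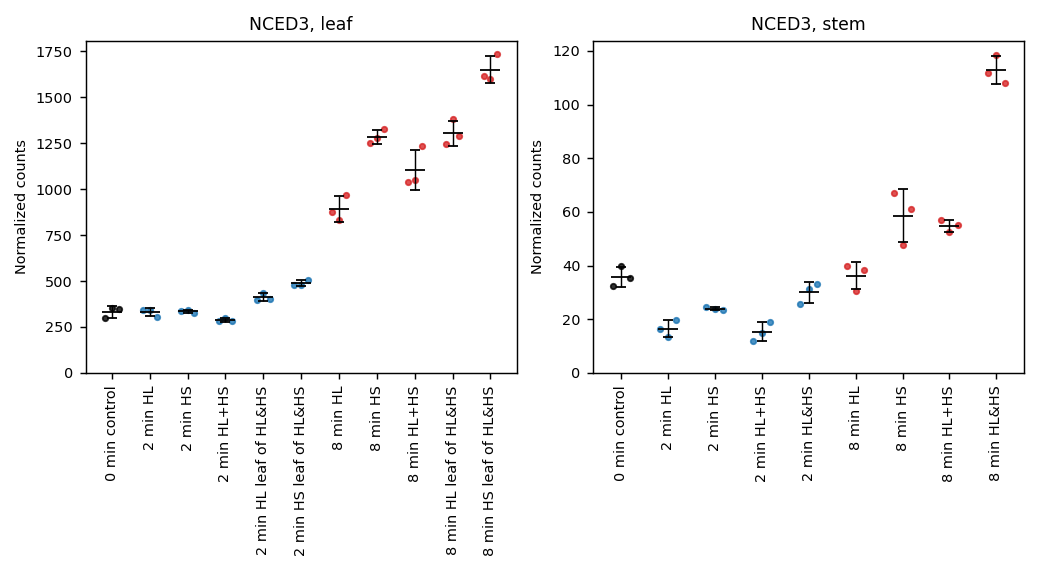
NCED3 in normalized counts (y axis, from 0) in each leaf group (left) and stem group (right), with 1 point per library (black, 0 min, blue, 2 min, red, 8 min) and the mean ± SD in black. All 8 min leaf libraries lie above 829 while the controls reach 353, and in stems the HL&HS group at 8 min stands at 108 to 118. The 8 min leaf HL and HS groups are named by their titles.

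After 2 min, NCED3 was already higher in leaves of plants that had a lit and a heated leaf, and not where a single leaf was stressed. It read 397, 437 and 402 normalized counts in the lit leaf and 478, 481 and 508 in the heated leaf of HL&HS plants, all above the controls. The log2 changes were 0.31 (SE 0.07, adjusted p = 0.000467) and 0.56 (adjusted p = 1.54e-08) by limma. With a single stress, the log2 changes were 0.00 for HL (95% interval -0.14 to 0.14) and 0.02 for HS (-0.12 to 0.16). Under HL+HS on the same leaf it read 280, 301 and 280 normalized counts, a log2 change of -0.21 (adjusted p = 0.019). That call was lost in the fit with only the compared groups and without any of 4 of the 6 libraries, control replicates 2 and 3 and HL+HS replicates 1 and 3, where the adjusted p reached 0.121.

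Those values were set against leaves of plants with a single stressed leaf, named by the same stress at 2 min and by the same title at 8 min. At 2 min NCED3 was higher with the second leaf by 0.31 in the lit leaf and by 0.54 in the heated leaf on the log2 scale (highest adjusted p 0.000673 by limma). At 8 min, with the titles, it was higher by 0.55 in the lit leaf and by 0.36 in the heated leaf. With the tags the heated leaf was higher by 0.89 (adjusted p = 7.92e-14), and the lit leaf differed by 0.02 (interval -0.12 to 0.16, adjusted p = 0.849). Over the members, 19 of 32 tests of this kind were past the threshold, 16 higher and 3 lower, against 29.0% of tests over all genes. With the tags the count was 17, 14 higher and 3 lower, against 30.3%.

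PP2CA, which inhibits OST1 and also acts on SLAC1, was higher with a second leaf in both comparisons at 2 min. It was 0.14 higher on the log2 scale in the lit leaf with a heated leaf elsewhere than under HL alone (adjusted p = 0.0094), a call lost without replicate 2 of either group (adjusted p up to 0.0652). In the heated leaf it was 0.44 higher than under HS alone (3075, 3217 and 3147 against 2294, 2374 and 2296 normalized counts, adjusted p = 3.04e-12). At 8 min the lit leaf was 0.38 higher than leaves titled HL. The heated leaf differed from leaves titled HS by 0.09 (interval 0.01 to 0.17, adjusted p = 0.0534). With the tags the lit leaf was lower (-0.17, adjusted p = 0.000656) and the heated leaf higher (0.65, adjusted p = 2.73e-17), so the direction in the lit leaf rests on the titles. ABI1 was higher with a second leaf in 3 of the 4 comparisons, by 0.17 to 0.23, and by 0.10 (adjusted p = 0.0891) in the lit leaf at 2 min. Its 8 min differences were also past the threshold with the tags, at 0.13 and 0.32.

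The HAI genes depended on the pair compared. In the lit leaf at 2 min, HAI1 read 88.6, 94.6 and 87.7 normalized counts with a heated leaf elsewhere and 46.4, 49.4 and 52.2 under HL alone, and the groups did not overlap (log2 difference 0.86, adjusted p = 5.29e-05). HAI2 was 0.78 higher in the same comparison and 0.62 higher in the heated leaf. At 8 min the values depended on which label of the singly stressed leaves was used. With the titles, HAI1 in the heated leaf was 0.65 lower than in leaves titled HS (adjusted p = 0.000955) and HAI2 0.52 lower (log2 difference -0.52, adjusted p = 0.00654, and 0.0516 without replicate 3 of the leaves titled HS). HAB2 was lower there too, by 0.23 on the log2 scale (log2 difference -0.23, adjusted p = 3.28e-05). With the tags the same leaf differed by 0.06 for HAI1 (interval -0.26 to 0.38), by 0.27 for HAI2 (interval -0.04 to 0.59) and by -0.10 for HAB2 (adjusted p = 0.0578), none past the threshold.

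Among the phosphatases of the treated leaves, ABI1 rose at 8 min in all 5 groups. In the control leaves it read 2203, 2112 and 2041 normalized counts. In leaves titled HL it read 2834, 2818 and 2964, in those titled HS 2981, 3245 and 2963, and under HL+HS 3442, 3558 and 3620. In HL&HS plants it read 3385, 3337 and 3339 in the lit leaf and 3556, 3460 and 3752 in the heated leaf. All 15 libraries were above all controls, and the changes ran from 0.44 to 0.76 on the log2 scale (SE 0.04, highest adjusted p 9.22e-12 by limma). Of all genes tested in leaf, 6.60% were higher in all 5 comparisons at 8 min, and among the members these were ABI1 and NCED3.

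PP2CA rose in 4 of the 5 leaf groups at 8 min. In the control leaves it read 2457, 2371 and 2549 normalized counts, and the 4 groups had means of 3267 (lit leaf of HL&HS) to 3956 (HL+HS). The log2 changes were 0.41 to 0.69. Leaves titled HL stayed at 2523, 2439 and 2542 normalized counts, overlapping the controls (log2 change 0.02, interval -0.05 to 0.10). The difference between leaves titled HL and titled HS was -0.55 on the log2 scale (adjusted p = 9.59e-15). At 2 min PP2CA was past the threshold in 4 of 5 leaf groups, by 0.18 to 0.36, and the exception was HS, at -0.08 (adjusted p = 0.143).

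HAI1 and HAI2 moved together in some groups only. Under HL+HS at 8 min HAI1 read 139, 149 and 134 normalized counts against 53.3, 77.4 and 93.4 in control leaves, a log2 change of 0.94 (SE 0.16, adjusted p = 6.69e-06). HAI2 read 157, 153 and 156 against 71.1, 80.8 and 89.9, also 0.94 (adjusted p = 4.59e-06). In leaves titled HS the rises were 0.62 and 0.57. The 2 genes parted in the lit leaf of HL&HS, where HAI1 changed by 0.55 (adjusted p = 0.00728) and HAI2 by -0.18 (adjusted p = 0.419). Without control replicate 1, the lowest of the 3 for HAI1, the calls of HAI1 in the lit leaf (adjusted p = 0.137) and in leaves titled HS (0.0533) were lost.

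At 2 min HAI1 was lower than control under HL and under HL+HS. It read 46.4, 49.4 and 52.2 normalized counts under HL and 44.2, 56.7 and 47.3 under HL+HS, and the second group overlapped the controls. The log2 changes were -0.55 (adjusted p = 0.00905) and -0.56 (adjusted p = 0.00507). Both calls were lost without control replicate 3, the highest of the 3, with adjusted p = 0.12 and 0.0808. HAI2 was past the threshold at 2 min in the lit leaf of HL&HS alone (0.42, adjusted p = 0.04), and this call was lost on leaving out any of its 6 libraries but control replicate 3, with an adjusted p of up to 0.171.

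**Figure D3:**
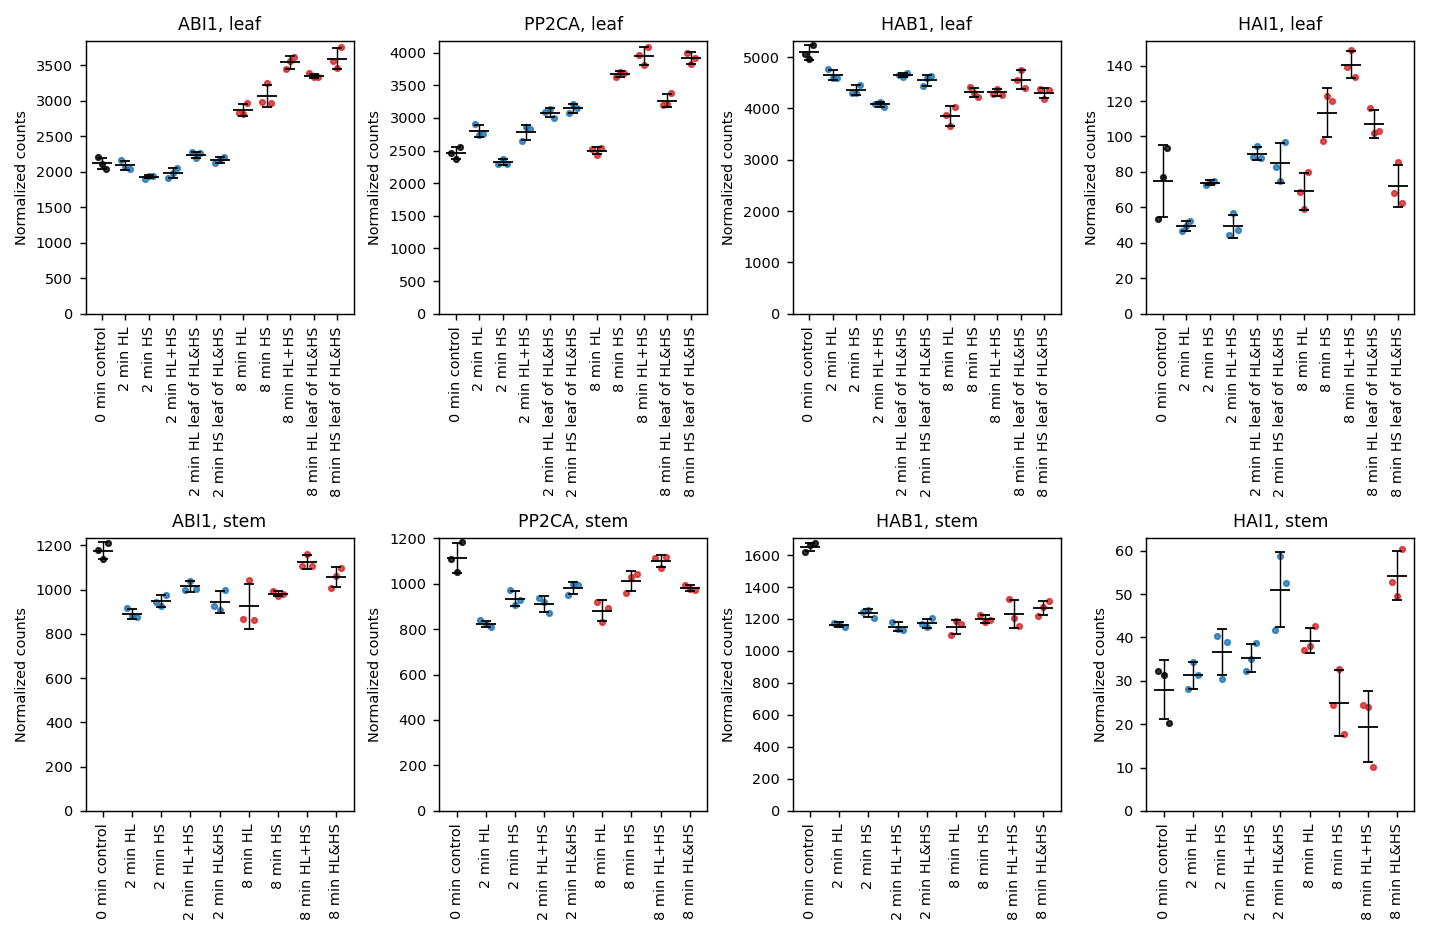
Normalized counts (y axis, from 0) of ABI1, PP2CA, HAB1 and HAI1 in leaf groups (top row) and stem groups (bottom row), with 1 point per library (black, 0 min, blue, 2 min, red, 8 min) and the mean ± SD in black. ABI1 rises at 8 min in every leaf group, PP2CA in all but HL, and HAB1 lies below its control in every stressed group of both tissues. The 8 min leaf HL and HS groups are named by their titles.

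HAB1, the most abundant member, was the one phosphatase that fell everywhere. In control leaves it read 5069, 4963 and 5239 normalized counts, and over the 10 stressed leaf groups the group means ran from 3850 (titled HL, 8 min) to 4651 (HL, 2 min). No stressed leaf library exceeded 4767, so none overlapped the controls. The log2 changes ran from -0.13 to -0.40, all past the threshold. Only 0.719% of all genes tested were lower in all 10 leaf comparisons. The change under HL at 2 min (-0.13) was lost without control replicate 3 (adjusted p = 0.0567).

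The 2 remaining members changed little in leaves. ABI2, a close relative of ABI1, had log2 changes of -0.15 to 0.24 and was called higher in 3 and lower in 2 of the 10 comparisons. Of these, the rise under HL+HS at 8 min was 0.24 (adjusted p = 0.000208) and that in the heated leaf of HL&HS 0.19 (adjusted p = 0.0025). Its fall under HS at 2 min (-0.15, adjusted p = 0.0425) was lost without any 1 of the 6 libraries and under TMM, with an adjusted p of up to 0.156. That under HL+HS at 2 min (-0.15, adjusted p = 0.02) was lost without control replicate 1 or HL+HS replicate 1. The rise in leaves titled HS (0.15, adjusted p = 0.0275) was lost without control replicate 2 or 3 or replicate 1 of those leaves, in the fit with only the compared groups and by DESeq2. HAB2, the closest relative of HAB1, was called in 1 of 10 (0.14 in leaves titled HS at 8 min, adjusted p = 0.0149, and 0.061 without control replicate 3).

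Counted over the 8 tested members, 18 of 40 leaf tests at 2 min were past the threshold, 7 higher and 11 lower, against 25.9% of the tests over all genes. At 8 min 28 of 40 were past it, 23 higher and 5 lower, against 34.6%. Taken singly, the leaf comparisons with control called 18.3% to 42.4% of all genes and those in stem 30.8% to 43.7%. The median log2 change of the 7 tested phosphatases under HL+HS at 8 min was 0.69, and that of all genes -0.01. In leaves titled HL it was 0.00, and that of all genes 0.01. In leaves titled HS the phosphatase median was 0.53, and in the lit and heated leaves of HL&HS 0.10 and 0.05. With the tags, the medians of the singly stressed groups trade places.

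**Figure D4:**
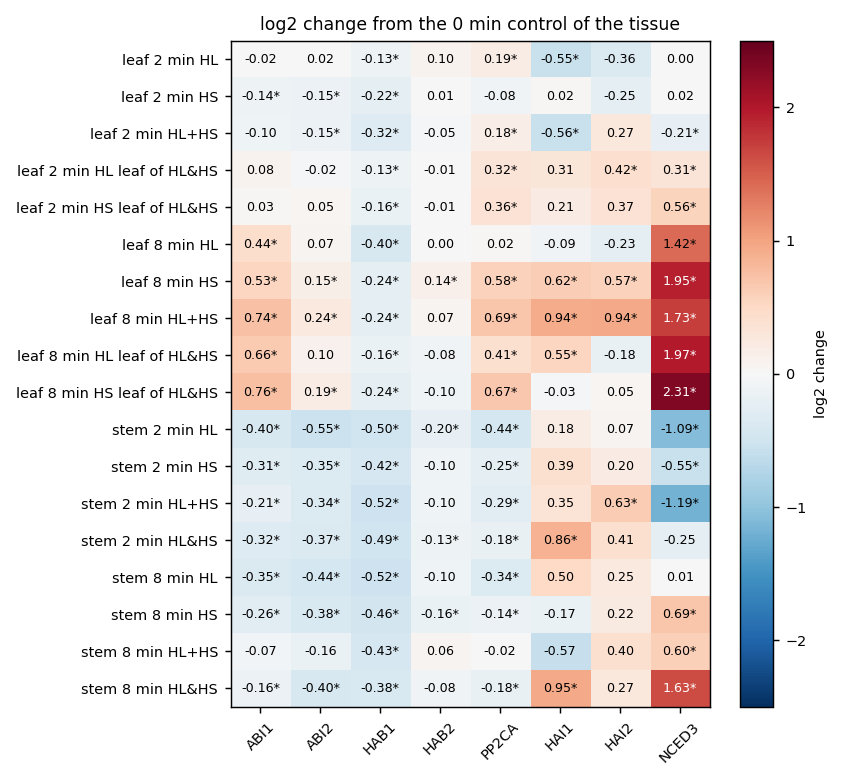
Mean log2 change, on the log2(normalized count + 1) scale, of the 8 tested genes (columns) against the 0 min control of the same tissue in the 18 stress groups (rows, 3 libraries each). An asterisk marks an adjusted p under 0.05 by limma. NCED3 and ABI1 are higher in the leaf rows at 8 min (up to 2.31 and 0.76), HAB1 is lower in every row, and ABI1, ABI2, HAB1 and PP2CA are lower in all stem rows at 2 min. The 8 min leaf HL and HS rows are named by the titles.

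Additivity, that is the HL change plus the HS change, was tested where both stresses fell on the same leaf (HL+HS minus HL minus HS plus control, on the log2 scale). Of 16 member tests of a departure 5 were past the threshold, a share close to the 28.7% over all genes, and at 2 min HAI2 was the one member called. NCED3 at 8 min lay 1.64 below the sum (departure -1.64, SE 0.10, adjusted p = 1.98e-17), since the rise of 1.73 under HL+HS was no larger than the 1.95 in leaves titled HS. ABI1 lay below its sum by a smaller amount (departure -0.23, adjusted p = 0.0016), and HAB1 fell less than its sum (departure 0.40, adjusted p = 3e-08). HAB1 was below control in all of these groups, at -0.24 under HL+HS, -0.40 in leaves titled HL and -0.24 in those titled HS. HAI2 exceeded its sum at 2 min, by 0.88 (adjusted p = 0.00219), and at 8 min by 0.60 (adjusted p = 0.0311), a call lost under 4 of the 7 alternatives.

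In the untreated stem the phosphatases of higher level were lower than control within 2 min. ABI1 read 1179, 1138 and 1213 normalized counts in control stems and 917, 880 and 876 in stems of plants with an HL leaf (log2 change -0.40, adjusted p = 7.19e-08). ABI2 changed by -0.55, HAB1 by -0.50, PP2CA by -0.44 and HAB2 by -0.20 in the same stems. ABI1, ABI2, HAB1 and PP2CA were past the threshold and lower in all 4 stem groups at 2 min. Of all genes tested in stem, 11.5% were lower in all 4. The members made 23 calls of 32 at 2 min, 2 higher and 21 lower, against 37.7% over all genes. The 2 higher calls were HAI1 under HL&HS, described with the comparison of HL&HS and HL+HS, and HAI2 under HL+HS (0.63, adjusted p = 0.0205), whose control stems were scattered at 61.6, 24.8 and 37.2 normalized counts and whose call was lost without control replicate 2 or 3 or HL+HS replicate 1 or 2 (adjusted p up to 0.268). HAB2 under HL&HS changed by -0.13 (adjusted p = 0.0251), a call lost without control replicate 2 or 3 or HL&HS replicate 2.

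HAB1 was lower in all 8 stem groups, as were 6.27% of all genes. It read 1619, 1660 and 1672 normalized counts in control stems, and the group means ran from 1151 to 1268, with the highest library at 1327. The log2 changes were -0.38 to -0.52. Together with the leaves, HAB1 was past the threshold and lower in each of the 18 comparisons with control. In the same stem libraries the secondary-wall markers given above were also lower than in the control stems.

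By 8 min some stem values lay closer to control, chiefly under HL+HS. In HL+HS stems, 4 of the 7 tested phosphatases were called higher at 8 than at 2 min and 1 lower. Under HL, HS and HL&HS 0 were called in stem. Under HL+HS, ABI1 read 1106, 1162 and 1106 normalized counts (log2 change -0.07, adjusted p = 0.369), and PP2CA changed by -0.02 (interval -0.12 to 0.08). In these HL+HS stems the summed wall markers were also nearest control, with a mean of 33458 against 45930 in control stems. The other stressed stem groups of both times had means of 18064 to 26267. The part of these markers was not tested. Under HL at 8 min the changes were still -0.35 for ABI1, -0.44 for ABI2 and -0.34 for PP2CA. The members made 18 calls of 32 at 8 min, 4 higher and 14 lower, against 38.6% over all genes. Calls that did not hold without every library were those of HAB2 under HS (-0.16, adjusted p = 0.00689, and 0.0541 without control replicate 2), of PP2CA in stems under HS (-0.14, adjusted p = 0.0237), lost without control replicate 3 or HS replicate 1, and of ABI1 under HL&HS (-0.16, adjusted p = 0.0173), lost without control replicate 3 or HL&HS replicate 1.

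NCED3 in stem was low. Its 3 lower calls against control were all at 2 min and its 3 higher calls all at 8 min, and only HS and HL+HS had both. At 2 min it read 16.3, 13.3 and 19.6 normalized counts under HL and 12.1, 14.8 and 19.1 under HL+HS, against 32.3, 39.7 and 35.5 in control stems. The log2 changes were -1.09 (SE 0.19, adjusted p = 1.11e-05) and -1.19 (adjusted p = 3.27e-06), and neither group overlapped the controls. Under HS it changed by -0.55 (adjusted p = 0.0245), a call lost without control replicate 2 or any HS library, and under HL&HS by -0.25 (adjusted p = 0.317).

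At 8 min NCED3 in stem read 112, 118 and 108 normalized counts under HL&HS, above every other stem library, a 3.10-fold rise (log2 change 1.63, adjusted p = 3.81e-09). It read 66.9, 47.8 and 61.2 under HS (0.69, adjusted p = 0.00457) and 56.8, 52.3 and 55.3 under HL+HS (0.60, adjusted p = 0.0124, and 0.0534 without control replicate 1). Under HL it read 40.0, 30.4 and 38.3, overlapping the controls (0.01, interval -0.38 to 0.40). These are low counts, with 20 to 79 reads of NCED3 in each 8 min stem library.

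The 2 ways of combining the stresses were compared directly in stem. NCED3 was higher when HL and HS were on separate leaves than on the same leaf, by 0.94 on the log2 scale at 2 min (25.6, 31.5 and 33.1 against 12.1, 14.8 and 19.1 normalized counts, adjusted p = 0.00156) and by 1.03 at 8 min (adjusted p = 3.95e-05). In neither pair did libraries overlap. At 2 min 3.12% of all genes were called in this comparison, and NCED3 was the one member called. At 8 min 37.8% of all genes were called. The 8 min stems of HL&HS and HL+HS also differed in summed wall markers, with means of 18331 and 33458 normalized counts. Their summed stem epidermis markers had means of 52272 and 73098. The part of these markers in any 8 min difference between the 2 groups was not tested.

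HAI1 was the other member that was higher in stems of HL&HS plants. At 8 min it read 52.7, 49.5 and 60.4 normalized counts under HL&HS and 24.3, 23.9 and 10.05 under HL+HS, with 33 to 38 and 6 to 16 reads in a library (log2 difference 1.53, SE 0.24, adjusted p = 3.28e-06). At 2 min the difference was 0.51 (interval 0.02 to 1.00, adjusted p = 0.332). Against control stems HAI1 was called under HL&HS at both times, at 0.86 (adjusted p = 0.00402) and 0.95 (adjusted p = 0.00146), and in no other stem group. Under HL at 8 min every stem library also lay above the control stems, without a call. HL&HS was not tested against HL in stem. ABI2, HAB2 and PP2CA were lower under HL&HS than under HL+HS at 8 min, by 0.24, 0.14 and 0.17 on the log2 scale (differences -0.24, -0.14 and -0.17, adjusted p = 0.00373, 0.0187 and 0.00605). The call of HAB2 was lost without replicate 1 of either group, with an adjusted p of up to 0.154 over the alternatives.

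In stem, 19 of 28 departures of the phosphatases from the sum of the separate changes were past the threshold and above 0, and 1 was below. For ABI1 the departures from the sum were 0.50 and 0.39 at 2 min and 0.55 and 0.46 at 8 min, for HL+HS and HL&HS in turn, with the highest adjusted p at 0.00015. ABI2, HAB1 and PP2CA likewise had all 4 departures past the threshold and above 0, at 0.29 to 0.66, and HAB2 had 3, at 0.19 to 0.33. Each of the 4 comparisons alone called 9.97% to 21.7% of all genes above the sum, and the share above it in all 4 was not counted. The 4 use the same control stems, so the single shares are no background for a call in all 4. HAI1 under HL+HS at 8 min was the one below its sum (-0.90, adjusted p = 0.0331), a call lost under 4 of the 7 alternatives and without any 1 of 4 of the 12 libraries. Of the HAB2 calls, that under HL+HS at 2 min was lost without any 1 of 5 libraries, and that under HL&HS at 8 min under 3 alternatives and without any 1 of 8 libraries. HAI2 had none past the threshold. NCED3 exceeded its sum under HL&HS at 2 min (1.40, adjusted p = 0.000165) and at 8 min (0.93, adjusted p = 0.00791), and not under HL+HS (0.45, adjusted p = 0.235, and -0.09, adjusted p = 0.812). Of 32 member tests 22 were past the threshold, 21 above the sum and 1 below, against 28.7% over all genes. Each departure contains the control stems once with a positive sign. A gene lower than control by a like amount in every stressed stem group therefore lies above its sum. HAB1 was such a gene, at -0.50, -0.42, -0.52 and -0.49 at 2 min under HL, HS, HL+HS and HL&HS. These departures thus cannot separate an effect of combining the stresses from a shared offset from the control stems. Those control stems also differ from all others in the wall markers.

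The change from 2 to 8 min does not use the controls. NCED3 was higher at 8 than at 2 min in all 9 comparisons, 5 in leaf and 4 in stem, as were 0.545% of the 17250 genes tested in both tissues. The log2 differences were 1.42 to 1.94 in leaf and up to 1.88 in stem, where the smallest rise was 2.15-fold under HL, with the highest adjusted p at 0.000168 by limma. ABI1 was higher at 8 min in all 5 leaf comparisons, by 0.46 to 0.84, as were 3.52% of all genes. HAI1 rose most under HL+HS in leaf (1.49, adjusted p = 2.97e-10) and was lower at 8 than at 2 min under HL+HS in stem (-0.92, adjusted p = 0.00564), a call lost without the third 8 min HL+HS stem library (adjusted p = 0.12). Of 72 member tests 35 were past the threshold, 31 higher and 4 lower, against 16.7% over all genes. The depth classes differ in the same way in each of these comparisons, and their part was not tested.

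High light and heat were also compared with each other. Of 48 member tests 16 were past the threshold, against 12.5% over all genes, 3 higher and 13 lower with high light. With the tags in place of the titles the same 16 calls were 9 higher and 7 lower. The leaves at 8 min gave 6 of the 16, all lower in leaves titled HL, with 22.5% of all genes called in that comparison. HAI2 differed by -0.80, HAI1 by -0.71, PP2CA by -0.55 and NCED3 by -0.53 on the log2 scale. Because titles and tags disagree for these groups, the direction holds for the titles and would be the reverse for the tags. Stems showed 2 calls at each time. NCED3 in stem at 8 min was lower under HL than under HS by 0.67 on the log2 scale (difference -0.67, adjusted p = 0.0133), a call lost without HL replicate 2 or HS replicate 1 (adjusted p up to 0.0695).

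The response to the same stress differed between leaf and stem in 30 of 48 member tests, with the leaf response higher in 29, against 26.4% over all genes. PP2CA and NCED3 had the higher response in leaf in all 6 comparisons. Each of these comparisons alone called 10.3% to 19.6% of all genes higher in leaf, and the share higher in all 6 was not counted. The 6 use the same leaf and stem controls, so the single shares are no background for a call in all 6. PP2CA differed by 0.17 to 0.72 and NCED3 by 0.57 to 1.41 on the log2 scale. With the tags both were also past the threshold in all 6, and the 8 min differences in HL and HS turned from 0.36 and 0.72 to 0.92 and 0.16 for PP2CA and from 1.41 and 1.26 to 1.94 and 0.74 for NCED3. The difference of NCED3 under HS at 2 min, 0.57 (adjusted p = 0.011), was not past the threshold by edgeR or DESeq2 (adjusted p up to 0.0632), and that of PP2CA, 0.17 (adjusted p = 0.0326), was lost without 6 of the 12 libraries (adjusted p up to 0.15). For HAI1 under HL+HS the sign of the difference changed with time, at -0.91 after 2 min and 1.51 after 8 min (adjusted p = 0.0184 and 6.96e-05). The call at 2 min was lost without leaf control replicate 3, leaf HL+HS replicate 1 or stem control replicate 3.

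The rest of the pathway was described with 65 further ABA genes in 10 lists, of which 47 were tested in leaf and 46 in stem. In leaf at 8 min, 7 were higher and 0 lower in all 5 comparisons. Per gene, 6.60% of all genes were higher and 2.07% lower in all 5. They included CYP707A3, an ABA 8′-hydroxylase that inactivates the hormone, with a mean log2 change of 3.94, DTX50, a transporter that exports ABA, at 3.42, and AP2C1, a clade B phosphatase that acts on MAP kinases, at 3.43. AT1G14200, annotated as a RING/U-box superfamily protein, changed by 3.48. SNRK2.3, a kinase held inactive by the clade A phosphatases, changed by 1.30, and the dehydration-responsive gene RD22 by 0.21. BGLU18, a glucosidase that releases ABA from its glucose ester, completed the 7.

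In leaf at 2 min 2 of the 47 were higher in all 5 comparisons, AT1G14200 at 0.95 and SNRK2.3 at 0.62, and the ABA receptor gene PYL4 was lower at -0.55 (mean log2 changes). Over all genes 3.13% were higher and 1.45% lower in all 5. The 5 tested ABA synthesis genes other than NCED3 had no member past the threshold in all leaf comparisons of either time.

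In stem the listed ABA genes were more often lower. At 2 min 4 of 46 were higher and 11 lower in all 4 comparisons, and at 8 min 5 were higher and 9 lower. Over all genes 10.5% were higher and 11.5% lower at 2 min, and 6.71% and 7.39% at 8 min. Of the ABA transcription factors ABF2, ABF3 and ABF4 were lower in all 4 comparisons of both times, and ABF1 was higher, with mean log2 changes of 0.81 at 2 min and 0.73 at 8 min. Of the 3 SnRK2 kinases listed, SNRK2.3 was higher in all 4 comparisons of both times, at 0.44 and 0.43, and OST1, the kinase of guard cells, was lower in all of them, at -0.47 and -0.49 (mean log2 changes at 2 and 8 min). SNRK2.2 was past the threshold in 1 of 4 at each time, and higher there. ABA1, the zeaxanthin epoxidase of ABA synthesis, changed by -0.32 and -0.25. HIS1-3, a linker histone known to be induced by drought and ABA, changed by -1.13 and -1.44. CYP707A3 at 0.96 and AP2C1 at 1.17 were higher in all 4 stem comparisons at 8 min, as in the leaves. At 2 min, PYL7 at 0.33 and BGLU18 at 0.82 were higher, and AT1G14200, higher in leaf, was lower in stem at -0.58. PYL9, another receptor gene, was lower in all 4 comparisons at 2 min. Of 36 receptor tests in stem at 2 min, 6 were past the threshold and higher and 7 lower.

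Across the 20 group means, centred within each tissue, the members fell into unlike patterns. ABI1 correlated with NCED3 (Pearson r = 0.80), ABI2 (0.78) and PP2CA (0.77), while HAB1 had r = 0.03 with ABI1 and -0.04 with NCED3. These points share libraries and size factors, and the values are descriptions without a test. The genes outside the members closest to NCED3 were AT4G02410 and AT1G50750 (r = 0.95 each). LBD11 and AT3G15770 were closest to ABI1 (0.95 each), AT4G35270 and SIGE to HAB1 (0.93 each), and AT1G72510 and PP2CG1 to ABI2 (0.91 each). The closest to PP2CA were AT5G03230 (0.91) and AT5G59830 (0.88), to HAB2 AT1G04780 (0.86) and AT3G14830 (0.85), to HAI2 AUL1 (0.85) and AT1G48360 (0.78), and to HAI1 5PTase14 (0.78) and AT3G62330 (0.74).

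The counts of the members come from distinct sequence. No window of 50 bases of any member's exons occurred elsewhere in the genome, and ABI1 alone overlapped another gene, AT4G26070 on the other strand, over 22 bases or 1.01% of its exons. In the TAIR10.1 annotation ABI1 lies on chromosome 4 at 13219915 to 13222376 (minus strand) and HAB1 on chromosome 1 at 27389948 to 27393327 (plus strand). PP2CA lies on chromosome 3 at 3583782 to 3585850 (minus strand), and NCED3, a gene of 1 exon, on the same chromosome at 4831286 to 4834015 (minus strand).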

How the data were processed

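The deposited table holds a normalized count signal for each of 32833 genes in every library, made by the authors. The submitters' processing notes name TAIR10, FastQC 0.11.7, STAR 2.4.0.1 and DESeq2 1.20.0, without their settings, and the treatment of strand and of multiply mapping reads is not given in the sources used here. Of the deposited values 100% were whole multiples of the smallest value above 0 of their library (tolerance 1e-06 reads), so whole reads were recovered.

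The tests were made in R 4.3.3 by limma 3.58.1 (lmFit, eBayes with a trend) after a log2 transform with 1 added to each value, in 1 fit per tissue, or 1 fit over both for comparisons between tissues. A gene entered the test when its mean reached 10 normalized counts, 18231 in leaf, 18428 in stem and 18893 over both, two-sided, with Benjamini-Hochberg adjustment over all of them and a threshold of 0.05. The pseudocount of 1 understates changes of low genes. Intervals are 95%. Counts were also simulated from the mean levels and size factors of the leaf libraries, with changes placed in HL+HS at 8 min only. There, 91% of genes changed by 1 on the log2 scale, 47% of those changed by 0.5 and 0.133% of unchanged genes were called. The simulation used the same set dispersion for every gene, not estimated from the libraries. These rates check the code and do not give the power or the rate of false calls in these data.

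Alternatives were no filter, a pseudocount of 0.1, rescaling within the tissue by TMM, a replicate block, fits restricted to the groups under comparison, tests of the recovered reads by edgeR 4.0.16 (quasi-likelihood) and DESeq2 1.42.0, and leaving out each library. After the data were seen, the singly stressed leaf groups at 8 min were also named by their treatment tags. Replicate pairs differed by more than sampling noise, with a chi-square per gene of 1.34 to 6.60 over 60 pairs. Of the identifiers 32548 matched the TAIR10.1 RefSeq annotation, which gave positions, names and sequences, and the genome build of the submitters' notes is TAIR10. The members and gene lists were chosen with earlier results of these data known. From the lists, the gene named per time and tissue was that with the largest mean change among the genes called one way in every comparison. Further genes are named where they complete a count or go the other way.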

Additional observations from a re-analysis of the deposited data

Results flagged for a closer look

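The change against control differed between leaf and stem for the same stress in 30 of 48 member tests, against 26.4% of tests over all genes. This was a test of the difference itself (limma, adjusted over all genes), given here as leaf minus stem on the log2 scale. After 2 min of HL the differences were 0.38 for ABI1, 0.56 for ABI2, 0.37 for HAB1, 0.30 for HAB2, 0.62 for PP2CA and 1.09 for NCED3. After 2 min of HS they were 0.19 for HAB1, 0.17 for PP2CA and 0.57 for NCED3. After 2 min of HL+HS they were 0.20 for HAB1, 0.47 for PP2CA, -0.91 for HAI1 and 0.99 for NCED3. Of these 2 min calls, those of NCED3 and PP2CA under HS and of HAI1 under HL+HS did not hold in every check, as given above.

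After 8 min in the groups titled HL they were 0.79 for ABI1, 0.51 for ABI2, 0.36 for PP2CA and 1.41 for NCED3. In the groups titled HS they were 0.79 for ABI1, 0.52 for ABI2, 0.22 for HAB1, 0.30 for HAB2, 0.72 for PP2CA, 0.80 for HAI1 and 1.26 for NCED3. After 8 min of HL+HS they were 0.81 for ABI1, 0.40 for ABI2, 0.19 for HAB1, 0.70 for PP2CA, 1.51 for HAI1 and 1.13 for NCED3. The difference of HAI1 in the groups titled HS was not past the threshold by edgeR or DESeq2, nor without 7 of the 12 libraries (adjusted p up to 0.165). With the treatment tags in place of the titles of the leaf groups, the HS differences of HAI1 (0.09) and HAB1 (0.06) were not past the threshold, and the HL differences of HAB1 (0.28) and HAB2 (0.24) were. The control stems enter every one of these differences, and their higher level of secondary-wall markers was not tested as a part of them.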

How the results depend on the processing

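No call of a member reversed under the 7 alternatives of the test or with any library left out, and every count of member calls stayed within 1.5 times the main count under all of them. One alternative, chosen after seeing the data, named the singly stressed leaf groups at 8 min by their treatment tags. It kept each count of calls within 1.5 times and reversed 19 values. Against control, HAI1 and HAI2 became 0.62 and 0.57 under HL and -0.085 and -0.23 under HS. Against a single stressed leaf, the lit leaf became -0.75 for HAI2, -0.17 for PP2CA and -0.078 for HAI1, and the heated leaf 0.27 for HAI2, 0.16 for HAB1 and 0.058 for HAI1. HL minus HS became 0.80 for HAI2, 0.13 for HAB2, 0.16 for HAB1, 0.55 for PP2CA, 0.53 for NCED3 and 0.71 for HAI1. From 2 to 8 min, PP2CA became 0.39 under HL, and under HS HAB2 became -0.004 and HAI1 -0.11. The swapped names alone make these changes. Of 87 member calls against control, 80 remained past the threshold under all 7 alternatives and 68 without each library in turn. Of the 141 calls in the other comparisons, 124 remained past it under the alternatives and 116 without each library. With 1 library left out, the member calls ranged from 14 to 18 in leaf at 2 min, 26 to 29 in leaf at 8 min, 20 to 26 in stem at 2 min and 17 to 22 in stem at 8 min. They ranged from 4 to 6 for the leaf departures, 20 to 23 for the stem departures, 5 to 6 for HL&HS against HL+HS in stem, 18 to 20 for the second leaf, 14 to 17 for high light against heat, 32 to 36 for 8 against 2 min, 29 to 33 for leaf against stem responses and stayed at 8 for untreated stem against leaf. The genes most like each member depended on the measure, since 5 of the 16 named by Pearson's r were also among the 2 closest by Spearman's rho. Pairing by replicate number was looked for within each tissue only. In 0 of 55 leaf and 0 of 36 stem pairs of groups were all 3 correlations of same-numbered libraries over 0.1. This cut cannot exclude pairing. For leaf HL+HS and the heated leaf of HL&HS at 2 min, the mean correlation was 0.23 for same-numbered libraries and -0.11 for others. Leaf libraries were not checked against stem libraries, and the tests treat them as independent. The replicate block moved leaf calls at 2 min from 18 to 19 and left 28 at 8 min. The low genes HAI1, HAI2 and, in stem, NCED3 are limited by depth.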
